A study of Mus musculus with 47 samples.

Results

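Bone marrow-derived macrophages (BMDMs) of Zmynd8 conditional knockout (cKO) mice were compared with BMDMs of WT mice after LPS. The comparison uses 2 of the 47 samples of the series, 1 RNA-seq library from each genotype, and takes in all 51912 genes that carry a mouse Ensembl identifier in the table of counts for this pair. BMDMs are obtained by culturing marrow cells with M-CSF, the growth factor of the macrophage lineage. LPS, a component of the bacterial outer membrane, was given at 100 ng/ml for 6 h. Both groups had the floxed Zmynd8 allele in both copies on a C57BL/6 background. The WT mice were littermates of matched sex and age without Cre. The cKO mice were heterozygous for Cre in the Lyz2 locus, which is active in macrophages, neutrophils and part of the dendritic cells, so that all cells grown from their marrow carried 1 Lyz2 allele with Cre. The ages of the mice were not given in the sources used here. The untreated (NT) pair and the pair treated with 20 ng/ml IL-4 for 6 h, with 1 library per genotype each, are used below for comparison only.

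According to the methods of the study, 3 biological replicates were mixed before each library was made. Each group therefore has 1 library, and no difference below has a replicate check. The adjusted p-values come from a test on the reads, which compares these 2 libraries and not the conditions. The WT library held 24902795 counts and the library labelled cKO held 23430578. The 2 libraries were alike in the share of counts taken by mitochondrial genes, 1.28% in WT and 1.35% in cKO.

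LPS is sensed by TLR4 with its co-receptors CD14 and MD-2. The signal runs through the adaptors MyD88 and TRIF to the NF-kB and AP-1 transcription factors, which switch on cytokine, chemokine and prostaglandin genes, and to interferon regulatory factors, which switch on interferon beta and through it a large set of antiviral genes. ZMYND8 is a nuclear protein that reads histone marks and works with chromatin-modifying enzymes. The question of the comparison is how the response of macrophages to LPS differs without it.

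Zmynd8 itself does not check the labels. It had 1967 counts in WT and 2033 in cKO after LPS, or 79.0 and 86.8 CPM, the counts scaled to the total of each library. The floxed exons are only a part of the gene, and counts over the whole gene cannot show their loss. Lyz2, the lysozyme gene that carries Cre in the cKO, was at 6902 CPM in WT and 2892 CPM in cKO. The cKO library was lower than WT in all 3 treatments, with a log2 fold change of -0.60 in NT, -1.25 after LPS and -0.77 after IL-4. The cell type of the labels was checked with its markers. Of the 14 macrophage markers listed, 13 passed the filter on low counts, among them Csf1r at 588 and 567 CPM in WT and cKO, and Adgre1 at 1181 and 1737 CPM. Cd3e, Cd3d, Elane, Ly6g and Cpa3, which mark T cells, neutrophils and mast cells, had 0 counts in both libraries, while other members of their lists had counts. S100a8, a neutrophil gene, had 70 and 41 counts. Calls, by the rule given below, were made for 17.1% of all genes tested as higher in cKO and for 8.76% as lower. Of these 13 macrophage markers, 2 were called higher and 4 lower, and 10 lay below 0, with a median log2 fold change of -0.21. Of the 19 neutrophil markers listed, 4 were tested, with 1 called higher and 1 lower in cKO. Of 12 T and NK cell markers, 2 were tested, Lck and Cd4, and both were called lower. Of 12 B cell markers 4 were tested and 1 was called lower. Of 11 mast cell and basophil markers, 2 were tested and Hdc was called lower. Of 12 dendritic cell markers, 8 were tested, with 3 called higher and 2 lower, and Xcr1 and Clec9a had 180 and 201 counts and 75 and 116 counts. In bulk samples, fewer cells of a type and less RNA per cell cannot be told apart.

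Of the 51912 genes, 19198 had counts in either library, and 12387 had a mean of at least 10 counts and were tested. Fold changes are given as the log2 of the ratio of cKO to WT on CPM plus 1. The rule for a call was a 1.2-fold difference or more, with an adjusted p below 0.05 (exact binomial test on read counts, Benjamini-Hochberg). By this rule 2119 genes (17.1%) were higher in cKO and 1085 (8.76%) were lower, which is 25.9% of the genes tested. With the added demand of a 2-fold change, 71 genes (0.573%) were higher and 41 (0.331%) were lower. In NT 47.6% of the genes tested were called and 3.83% at 2-fold (0.971% higher and 2.86% lower), and after IL-4 24.2% and 1.97%. After LPS 66.1% of the calls were higher in cKO, a share that was 52.9% with median-ratio scaling, 57.1% with TMM and 53.8% after centring on genes of like length, and 72.8% on deposited TPM with the fold rule alone, 69.7% with edgeR's exact test at an assumed coefficient of variation of 0.1 and 68.1% when an average of 100 counts was required. Most genes differed little between the 2 libraries. The median log2 fold change was 0.03, and 90% of the genes lay between -0.44 and 0.57. Such a call needs only that 2 libraries differ by more than the counting error. If biological replicates are assumed to vary by a coefficient of 0.1, edgeR's exact test with the same fold rule called 416 genes, and at an assumed 0.2 it called 37.

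**Figure D1:**
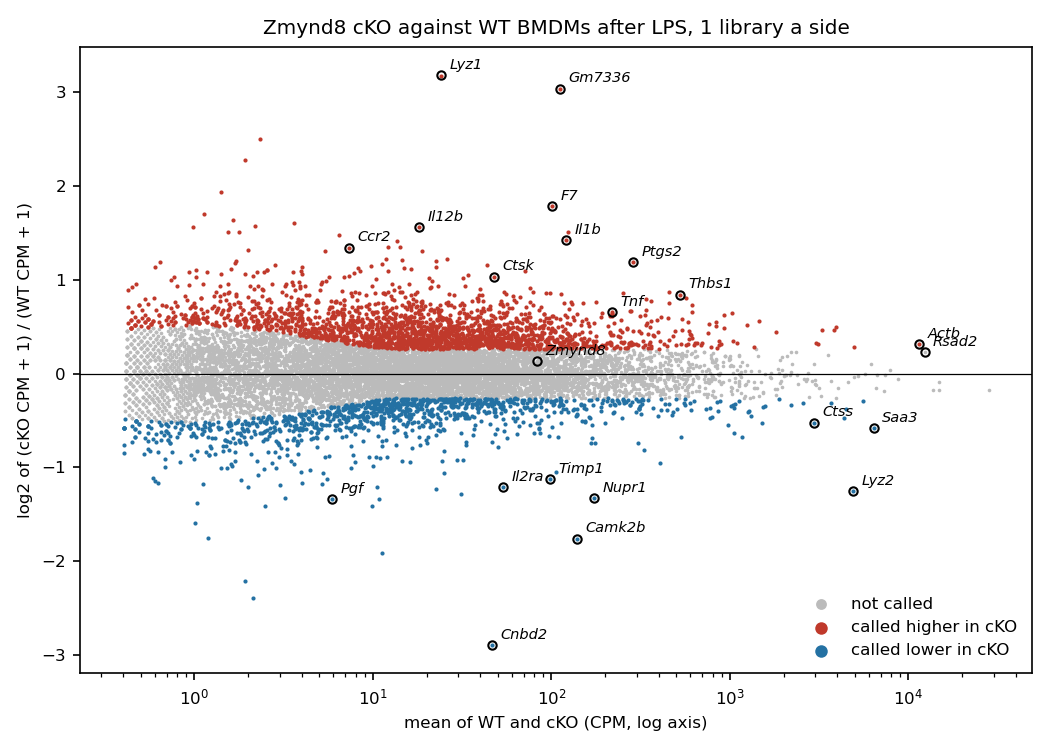
Each point is 1 of the 12387 genes tested after LPS, with its mean level in the 2 libraries (CPM, log axis) against the log2 ratio of cKO to WT on CPM plus 1. Red points were called higher in cKO, blue points lower and grey points were not called, and Il12b, Il1b, Ptgs2 and Ccr2 lie above 1 while Pgf, Timp1, Nupr1 and Lyz2 lie below -1.

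The cytokine genes Il12b and Il1b were among the 15 highest called genes that averaged 100 or more counts, and Ptgs2 was over 2-fold higher. Il12b encodes the subunit shared by IL-12 and IL-23, which macrophages use to steer T cells. It had 216 counts in WT and 647 in cKO, a log2 fold change of 1.56 (95% limits 1.36 to 1.77). Il1b, which encodes the pyrogenic cytokine IL-1 beta, had 1626 and 4137 counts, a log2 fold change of 1.42 (1.34 to 1.5). Ptgs2, the inducible cyclooxygenase that starts prostaglandin synthesis, had 4351 and 9384 counts, a log2 fold change of 1.19 (1.14 to 1.24). The limits here and below cover counting error only. The receptor gene Ptger4, through which prostaglandin E2 acts on macrophages, was also higher, with 168 and 399 counts. In contrast, Ptges, whose product makes prostaglandin E2 from the product of cyclooxygenase, was lower in cKO, with 5178 and 2915 counts and a log2 fold change of -0.74 (-0.80 to -0.67).

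The sequences just upstream of the start sites of Il12b, Il1b and Ptgs2 are shown because these inflammatory genes were over 2-fold higher in cKO, beside that of Timp1, described below, which was over 2-fold lower. Each holds the 250 bases before the RefSeq start (GRCm38.p6, the build mm10 of the files), read on the strand of the gene. Capitals mark matches, on either strand, to the PU.1 letters GGAAGT, the C/EBP letters TTGCNNAA and the TATA box, searched as TATANAA. No matches overlap. Searched as well were TGANTCA (AP-1), GGGA and TTCC with 2 bases between them (NF-kB) and TTTC repeated after 2 bases (interferon-stimulated response element, ISRE).
Il12b, chr11:44399813-44400062, plus strand: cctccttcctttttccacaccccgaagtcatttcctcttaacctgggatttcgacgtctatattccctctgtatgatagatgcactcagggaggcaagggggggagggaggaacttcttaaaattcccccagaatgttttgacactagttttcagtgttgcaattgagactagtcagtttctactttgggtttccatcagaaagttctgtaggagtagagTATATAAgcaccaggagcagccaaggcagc
Il1b, chr2:129371140-129371389, minus strand: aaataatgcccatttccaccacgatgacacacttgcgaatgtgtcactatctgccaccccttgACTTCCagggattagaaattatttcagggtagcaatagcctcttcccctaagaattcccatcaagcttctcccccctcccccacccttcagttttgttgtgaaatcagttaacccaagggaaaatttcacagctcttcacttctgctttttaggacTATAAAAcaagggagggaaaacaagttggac
Ptgs2, chr1:150099781-150100030, plus strand: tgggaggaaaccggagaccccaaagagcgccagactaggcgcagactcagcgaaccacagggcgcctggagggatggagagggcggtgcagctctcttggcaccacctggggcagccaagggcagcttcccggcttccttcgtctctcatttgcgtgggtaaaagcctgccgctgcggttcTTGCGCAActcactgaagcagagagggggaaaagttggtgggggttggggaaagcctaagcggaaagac
Timp1, chrX:20869916-20870165, plus strand: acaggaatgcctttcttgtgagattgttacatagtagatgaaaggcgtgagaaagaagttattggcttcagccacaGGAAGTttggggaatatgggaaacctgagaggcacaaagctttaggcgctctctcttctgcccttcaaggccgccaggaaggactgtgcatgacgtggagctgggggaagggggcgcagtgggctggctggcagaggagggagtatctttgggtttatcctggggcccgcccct
Il12b and Il1b each held a TATA box match that began 30 and 31 bases before the start, and their windows had 46% and 44.4% G and C, against a median of 59.6% for the genes tested. The Ptgs2 window held a C/EBP match that began 69 bases before the start and had 61.6% G and C. Il1b and Timp1 each held a PU.1 match. The letters searched for NF-kB, AP-1 and ISRE were not found in these 4 windows, which says only that these letters are not in them. Across all 27025 genes with a promoter, the TATA box letters were in 10.9% of the windows, the PU.1 letters in 20% and the C/EBP letters in 9.55%. Of the genes tested, 9095 matched a promoter by symbol, and among these the shares were 4.79%, 24.9% and 7.56%. Among the 361 matched genes called at least 1.5-fold higher in cKO, they were 7.76%, 21.9% and 7.48%, and among the 162 called at least 1.5-fold lower they were 4.32%, 20.4% and 13%. At 2-fold, with 37 higher and 23 lower genes matched, the C/EBP shares had the opposite order, 18.9% and 4.35%, and no order is read from them. For the NF-kB letters the shares were 1.3% of the genes tested, 0.831% of the higher genes and 1.23% of the lower genes. For the AP-1 letters they were 4.47%, 6.09% and 4.32%, and for the ISRE letters 3.07%, 3.88% and 4.94%.

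The list of cytokines, which also holds anti-inflammatory members, was divided. Of the 24 listed, 18 were tested, 6 were called higher in cKO, Il12b and Il1b included, and 3 lower, a larger share than the 25.9% of all genes. Their median log2 fold change was 0.01, close to the median of all genes. Tnf went from 169 to 267 CPM, a log2 fold change of 0.66 (0.60 to 0.72), Il6 from 13.3 to 21.3 CPM, and Il1a from 55.9 to 87.1 CPM. Il7, a lymphocyte growth factor, was also called higher, on 27 and 59 counts. The 3 called lower were Il10, the main anti-inflammatory cytokine of macrophages, with 1554 and 1035 counts and a log2 fold change of -0.49 (-0.60 to -0.38), Il27 at -0.38 and Tnfsf9 at -0.33. Il1rn, the IL-1 receptor antagonist, was at 8945 and 8617 CPM, a log2 fold change of -0.05. Il1b was thus higher in cKO while the gene of its antagonist differed little.

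Most of the chemokine genes called were CC chemokines, and most of those were higher in cKO. Of 11 CC chemokines tested, 5 were called higher and 1 lower, against 17.1% and 8.76% of all genes, with a median log2 fold change of 0.21. Ccl22, which attracts cells with the receptor CCR4, went from 43.8 to 78.7 CPM, a log2 fold change of 0.83 (0.72 to 0.94). Ccl12, Ccl7 and Ccl2, 3 ligands of the monocyte receptor CCR2, had log2 fold changes of 0.61, 0.53 and 0.34. Ccl3 had 0.36, and the gene called lower was Ccl8, at -0.46. The gene of the receptor CCR2 itself had 93 counts in WT and 258 in cKO, a log2 fold change of 1.34 (1.05 to 1.63). Of 8 CXC chemokines tested, only Pf4, the platelet factor gene that macrophages also express, was called, at 682 and 1224 counts, which is no larger a share than that of all genes. Cxcl10, a ligand of CXCR3, was at 2859 and 3072 CPM, a log2 fold change of 0.10.

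NF-kB genes were called in 1 direction. Of 20 subunits and feedback genes, 9 were called higher and 0 lower by the binomial test, against 17.1% and 8.76% of all genes, with a median log2 fold change of 0.21. The 9 were Nfkb1, Nfkb2 and Rel, which encode subunits, the inhibitors Nfkbia, Tnfaip3, Cyld and Zc3h12a, and Nfkbiz and Traf1. Nfkb1 had a log2 fold change of 0.50, Nfkbiz 0.51, Cyld 0.48 and Tnfaip3, which encodes the brake A20, 0.42. Rela, which encodes p65, was at 95.8 and 104 CPM, a log2 fold change of 0.11 that was not called. Upstream of NF-kB, 7 of 24 genes of LPS sensing and adaptors were called higher, among them Ikbkg (0.39), Chuk (0.38) and Ticam2 (0.37), and 2 were lower, against 17.1% and 8.76% of all genes. The 2 were Cd14 (-0.42) and Ly86 (-0.40). Tlr4 was at 37.2 and 35.4 CPM and was not called. In the annotation of the deposited table, 73 genes of the NF-kappa B signaling pathway were tested, of which 23 were called higher and 5 lower, with a median of 0.15, beside the same shares of all genes. Of 124 genes of the chemokine signaling pathway, 30 were called higher and 3 lower, against 17.1% and 8.76%. After centring on genes of like length, the NF-kappa B pathway had 16 higher and 4 lower, and the chemokine pathway 21 and 4. Of all 12374 genes centred, 1364 were then called higher and 1170 lower.

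Immediate early and AP-1 genes were called higher in 7 of 22 cases and lower in 2, against 17.1% and 8.76% of all genes, so that the share lower was near that of all genes. When an average of 100 counts was required, 4 were called higher and 2 lower, and after centring on genes of like length 6 and 1. Egr1, a zinc finger factor of the first wave of the response, had 79 and 166 counts, a log2 fold change of 0.95 (0.63 to 1.27). Klf6 had 0.55, while Jun (0.07), Junb (0.03) and Atf3 (0.08) were not called.

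Genes of the interferon branch that were called were mostly lower in cKO. Of 35 interferon response genes, 1 was called higher and 7 lower, against 17.1% higher and 8.76% lower of all genes, and the median log2 fold change was -0.08. Ifnb1, the interferon that starts this branch, had 61 and 28 counts, a log2 fold change of -0.65 (-1.04 to -0.24). The other genes called lower were Isg20 (-0.43), Bst2 (-0.41), Usp18 (-0.33), Ifi35 (-0.32), Oas1a (-0.31) and Isg15 (-0.27), and Gbp7 (0.41) was called higher. With the deposited TPM values and the fold rule alone, the list had 4 members higher and 3 lower. By that rule 3476 of all 12387 genes were higher and 1300 lower, so the share higher in the list stayed below that of all genes. Rsad2, the antiviral enzyme viperin, was at 11330 and 13284 CPM, a log2 fold change of 0.23 that did not reach the 1.2-fold rule. The genes of this list that were tested in the other pairs, 34 in each, had a median of -1.59 in NT and 0.84 after IL-4, with the median after LPS between them.

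**Figure D2:**
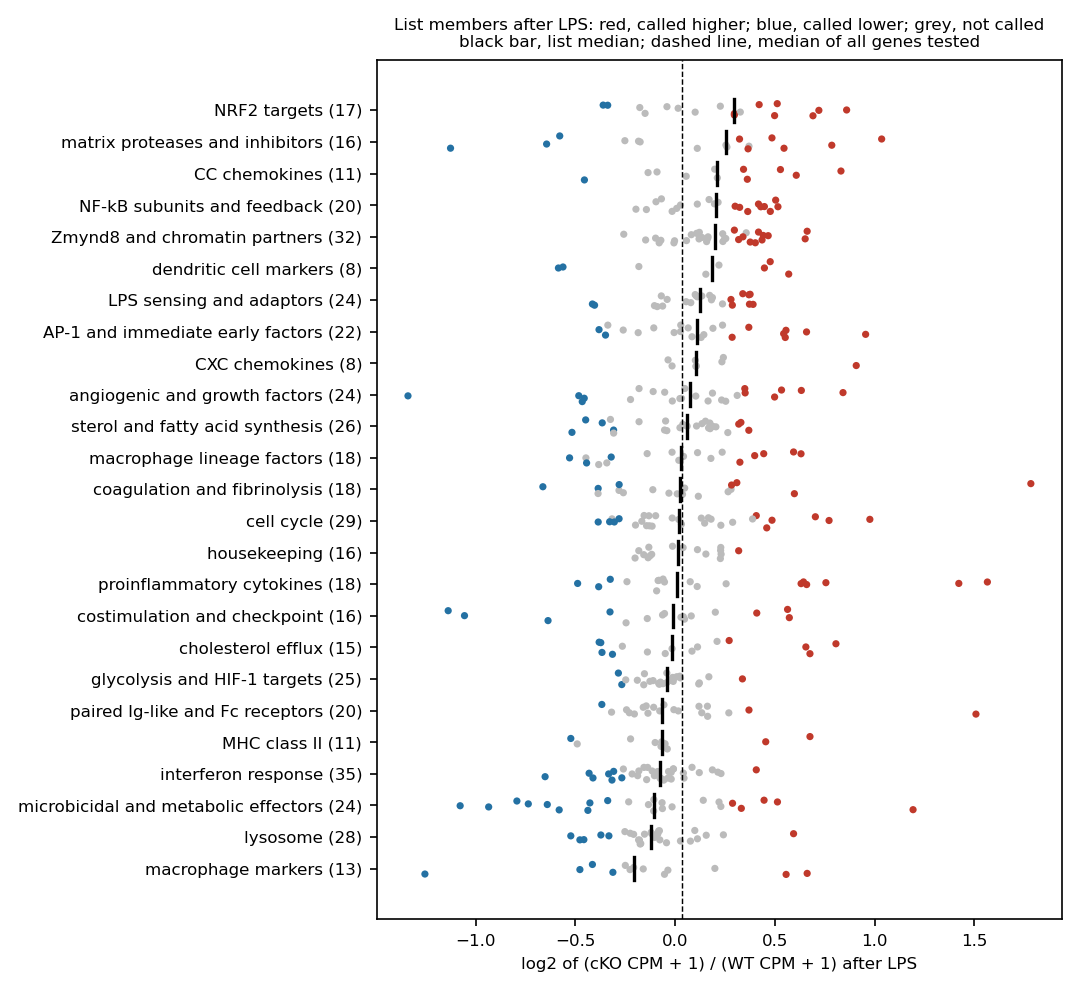
Each point is a tested member of a hand-written list, placed by its log2 ratio of cKO to WT after LPS, for lists with at least 8 tested members (number in parentheses). Red members were called higher, blue lower, the black bar is the list median and the dashed line the median of all genes tested, 0.03, and the list medians run from -0.21 for macrophage markers to 0.30 for NRF2 targets.

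Of 24 antimicrobial and metabolic effector genes tested, 5 were called higher in cKO and 9 lower, against 17.1% and 8.76% of all genes, with a median of -0.11. Nos2, which encodes the enzyme that makes nitric oxide, was at 7472 and 7391 CPM, a log2 fold change of -0.02 (-0.03 to -0.01). Saa3, an acute-phase gene, was at 7641 CPM in WT and 5106 CPM in cKO, a log2 fold change of -0.58. Hp, the haptoglobin gene, was at -0.93 (-1.15 to -0.72), Slpi, a protease inhibitor, at -0.64, and Ido1, which degrades tryptophan, had 86 and 26 counts. Arg1 and Arg2, the arginases, were lower at -0.43 and -0.79. Acod1, the enzyme of itaconate synthesis, was called higher at 0.29, and Cybb, a subunit of the phagocyte oxidase, at 0.45.

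Among surface molecules for T cells, 3 of 16 were called higher, near the 17.1% of all genes, and 4 lower, against 8.76%. Pdcd1lg2, the gene of the checkpoint ligand PD-L2, had 186 counts in WT and 72 in cKO, a log2 fold change of -1.06 (-1.38 to -0.73), and Slamf1 was at -0.64. Tnfsf14, on 72 and 18 counts, was at -1.14. Cd274, the gene of PD-L1, was at 2662 and 2565 CPM. Of 11 MHC class II genes, 2 were called higher and 1 lower, both near the shares of all genes, and Cd74, H2-Aa and H2-Ab1 were not called. The gene called lower was Ctss, the protease that trims the invariant chain, at 3503 and 2437 CPM. Il2ra, the alpha chain of the IL-2 receptor, was at 75 CPM in WT and 31.9 CPM in cKO after LPS and had at most 4 counts in each of the other 4 libraries.

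Pgf and Timp1, from the growth factor and matrix lists, were among the 15 lowest called genes that averaged 100 or more counts. Pgf encodes placental growth factor, a relative of VEGF that acts on FLT1. It had 221 counts in WT and 68 in cKO, a log2 fold change of -1.34 (-1.65 to -1.02), with an adjusted p of 7.27e-17 in the binomial test. Flt1, the gene of its receptor, was called higher on 226 and 310 counts, and Vegfa was at 96.4 and 108 CPM and was not called. Of 24 angiogenic and growth factor genes, 6 were called higher and 4 lower, against 17.1% and 8.76% of all genes, with a median of 0.08. Thbs1, an inhibitor of angiogenesis that also activates TGF-beta, went from 376 to 675 CPM, a log2 fold change of 0.84 (0.80 to 0.88), and Inhba, the activin A gene, had 0.63. Spp1, the osteopontin gene, was lower at -0.46. Timp1, the inhibitor of matrix metalloproteinases, had 3370 counts in WT and 1440 in cKO, a log2 fold change of -1.13 (-1.21 to -1.04). Of 16 matrix proteases and inhibitors, 6 were called higher and 3 lower, against the same shares of all genes, with a median of 0.26. Ctsk, the collagen-cleaving cathepsin of osteoclasts, was at 1.03, Mmp8 at 0.78, and Mmp19 at -0.64. F7, coagulation factor VII, had 1114 and 3663 counts, a log2 fold change of 1.78 (1.69 to 1.88), and was the largest difference among the 18 coagulation genes tested, of which 4 were called higher and 3 lower, against 17.1% and 8.76% of all genes, or 2 and 3 with median-ratio scaling.

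Genes of the antioxidant factor NRF2 had the highest median of the lists with at least 8 tested members, 0.30. Of 17 tested, 8 were called higher and 2 lower, where 17.1% and 8.76% of all genes were. Slc7a11, the cystine transporter, had 198 and 357 counts, Gclm, a subunit of the enzyme of glutathione synthesis, 840 and 1317, and Txnrd1, thioredoxin reductase, 2368 and 3610, for log2 fold changes of 0.86, 0.72 and 0.69. The 2 called lower were Gstm1 (-0.36) and Hmox1 (-0.34). Fth1, the ferritin heavy chain, was at 29905 and 26443 CPM and was not called.

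Lipid and lysosome genes differed within their groups. Lpl, lipoprotein lipase, and Cd36, a scavenger receptor for oxidized lipids, were higher in cKO at 0.81 and 0.68, while of 3 genes of cholesterol efflux Apoe and Abcg1 were lower, at -0.38 and -0.37, and Abca1 was higher, at 0.27. Of 15 genes of lipid uptake and efflux tested, 4 were called higher and 4 lower, where 17.1% and 8.76% of all genes were. Of 28 lysosome genes, 1 was called higher and 5 lower, or 8 lower with median-ratio scaling, with a median of -0.12, and Ctsd went from 5048 to 3624 CPM. In the annotated lysosome pathway, 9 of 108 genes were called higher and 18 lower, again against 17.1% and 8.76%. Sterol and fatty acid synthesis (3 higher and 4 lower of 26) and glycolysis with HIF-1 targets (1 and 2 of 25) showed shares called near or below that of all genes. The gene of 16 housekeeping genes that was called was Actb, at 10237 and 12762 CPM, and with median-ratio scaling 0 of the 16 were called. Length centring called 2 higher and 1 lower. Deposited TPM with the fold rule alone gave 5 higher and 0 lower, where 3476 of all 12387 genes were higher and 1300 lower. Of 20 paired Ig-like and Fc receptors, 2 were called higher and 1 lower, below the shares of all genes, or 2 and 3 with median-ratio scaling.

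Of 18 transcription factors of the lineage tested, 5 were called higher and 3 lower, against 17.1% and 8.76% of all genes. Spi1, which encodes PU.1, and Irf8 were among the lower genes at -0.44 and -0.32, while Zeb2, Mitf and Cebpb were higher at 0.63, 0.59 and 0.44. Of the macrophage markers, Itgam (0.66) and Adgre1 (0.56) were higher, and Lyz2, Ctsd, Cd14 and Aif1 were lower, against 17.1% higher and 8.76% lower of all genes. With median-ratio scaling 7 of the 13 were called lower and with TMM 6, where the genes called lower in all went from 1085 to 1495 and 1362. Of 29 cell cycle genes, 6 were called higher, among them Cdk6 (0.77) and Ccnd2 (0.70), and 4 lower, the first close to the share of all genes. Ccnf, a cyclin, was outside this list, at -1.23.

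ZMYND8 acts with histone demethylases, the NuRD complex and bromodomain proteins. Of 32 genes for ZMYND8 and such chromatin partners, 11 were called higher in cKO and 0 lower by the binomial test. Of all genes 17.1% and 8.76% were, and the list median was 0.20. Median-ratio scaling called 1 of the 32 lower, and so did TMM, where 1495 and 1362 of all 12387 genes were called lower. Deposited TPM with the fold rule alone gave 17 higher and 0 lower. By that rule 3476 of the 12387 genes were higher and 1300 lower. Kdm5a (0.66) and Kmt2c (0.65), enzymes of histone H3 lysine 4 demethylation and methylation, had the largest values, Kdm1a, which encodes LSD1, had 0.30, and Kdm5c, at 0.24, was not called. These are long genes, with a median longest transcript of 5810 bases against 3270 for all genes tested. After the median log2 fold change of genes of like length was subtracted, 3 of the 32 were called higher and 2 lower, and the list median was 0.07. Of all 12374 genes centred in this way, 1364 were called higher and 1170 lower.

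The difference between the genotypes moved with transcript length across all genes. With the genes cut into 5 groups of equal size by the length of their longest transcript, the median log2 fold change after LPS was -0.09 in the shortest group (median 1286 bases), and 0.23 in the longest (median 6575 bases). Of the shortest genes 7.52% were called higher and 16.8% lower, and of the longest 38.6% and 3.19%. In NT the order was the opposite, with a median of 0.31 in the shortest group and -0.37 in the longest, and after IL-4 the medians ran from 0.05 to -0.04. The part of length in the differences of single genes was not tested. All 30 genes of the 15 highest and 15 lowest below remained called after the median of their length bin was subtracted, including Il12b at 1.61, Il1b at 1.52 and Pgf at -1.3. These genes were chosen for large fold changes, so that their staying called says little. Of all 3204 calls, 2119 were kept in their direction. Several list members were no longer called, Tnfaip3 among them. This centring took the NF-kB list to 6 called higher and 0 lower, LPS sensing to 4 and 2, the lineage factors to 3 and 3, the matrix list to 6 and 5, and the lysosome list to 2 and 8. The growth factor list went to 4 and 4, and sterol and fatty acid synthesis to 1 and 3. Over all genes the calls moved as well, to 1364 higher and 1170 lower of 12374, from 2119 and 1085 of 12387. Deposited TPM with the fold rule alone took the growth factor list to 11 higher and 4 lower, the cell cycle list to 12 and 2, sterol and fatty acid synthesis to 7 and 2, the surface molecules for T cells to 5 and 3, and the CXC chemokines to 3 and 0. By that rule 3476 of all 12387 genes were higher and 1300 lower, against 2119 and 1085 by the main rule.

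**Figure D3:**
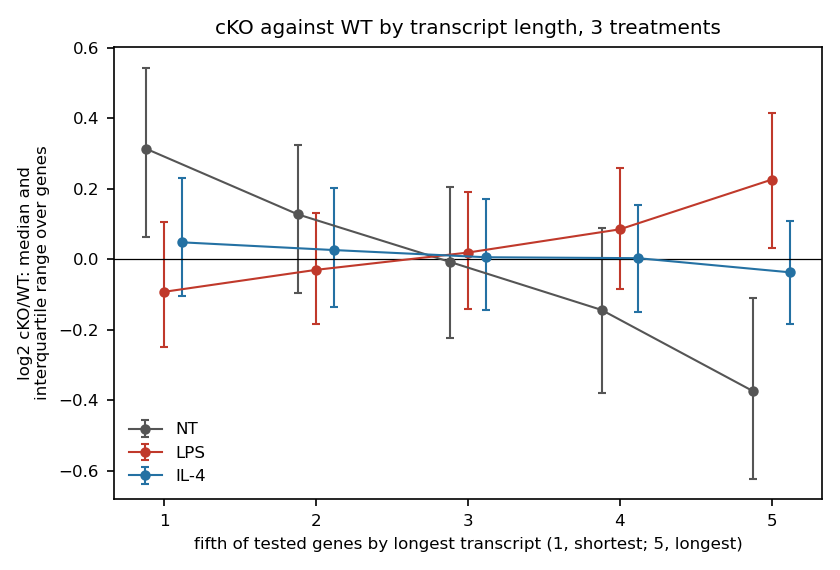
Points are the median log2 ratio of cKO to WT, and bars the interquartile range over genes, in 5 groups of tested genes ordered by the length of the longest transcript, for NT, LPS and IL-4. The medians rise from -0.09 to 0.23 after LPS, fall from 0.31 to -0.37 in NT and stay between 0.05 and -0.04 after IL-4.

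Among the genes called with 100 or more counts on average, the 15 highest were Lyz1, Gm7336, F7, Il12b, Pira2, Zfp871, Il1b, Vasn, Kpna2, Gm1966, Ccr2, Gm42549, Arsb, Klk1b11 and Ptger4, from 3.18 to 1.22. The 15 lowest included Cnbd2, Gm15494, Camk2b, Kctd19, Pgf, Gm15056, Nupr1, Lyz2, Ccnf, Gm28048, Il2ra, U90926, Tmem9 and Timp1, from -2.89 to -1.13. Cnbd2, a gene with a cyclic nucleotide-binding domain, had 2046 and 239 counts, and Camk2b, a calcium-dependent kinase subunit, 5374 and 1478. Nupr1, a small stress-response protein, had 6183 and 2308 counts, a log2 fold change of -1.32. All 30 were also called by edgeR's exact test at an assumed coefficient of variation of 0.1, and 8 of them at 0.2, namely Lyz1, Gm7336, F7, Il12b, Zfp871, Cnbd2, Camk2b and Gm15494. For Il1b and Pgf the adjusted p of that test at 0.2 was 0.138 and 0.118. Of the 75 called genes that the naming rules given below picked, 50 were called at 0.1. Il6, Ccl12, Tnfaip3 and Saa3 were among those that were not. Of the 112 genes called at 2-fold, 79 were protein coding and 14 pseudogenes, and 15 had at most 3 counts in 1 of the 2 libraries, where the pseudocount moves the fold change.

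Some of these genes share sequence with others, and reads of 1 could have been counted for the other. For 6 of the 30 genes over 20% of all windows of 50 bases in the longest transcript also occur in transcripts of another gene. For Gm7336, a processed pseudogene of Gapdh, the share was 100%, and the counts went from 582 to 4665 while Gapdh went from 106097 to 89484. Kpna2, a nuclear import factor, shared 92.4% with other genes, most with Gm10184, which had 106 counts in WT and 0 in cKO. Their summed counts of 266 and 420 give a log2 fold change of 0.70 in place of 1.35. Gm28048 shared 98.2%, most with B3gnt2, and the sum gives 0.33 in place of -1.21. Pira2, an activating paired Ig-like receptor, shared 94%, most with Gm15922, and the sum gives 1.10 in place of 1.51. These 4 differences are therefore uncertain. Arsb and Ptger4 shared 57.8% and 25.7%, with log2 fold changes after summing of 1.28 and 1.22. Of other genes named above, Itgam shared 72.4% of its windows, Ctsd 36.6% and Mmp19 25.4%.

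Lyz1, the gene next to Lyz2, had the highest of these fold changes. It had 99 counts in WT and 1032 in cKO, while Lyz2 had 171869 and 67763. Both lie on the minus strand of chromosome 10, Lyz2 at 117277331 to 117282321 and Lyz1 at 117287797 to 117292868. Their coding sequences of 444 bases are 95% identical, and the second coding exon is shown in full because reads must be told apart by the bases in capitals, at which the 2 genes differ.
Lyz2, chr10:117280641-117280805, minus strand, GRCm38.p6: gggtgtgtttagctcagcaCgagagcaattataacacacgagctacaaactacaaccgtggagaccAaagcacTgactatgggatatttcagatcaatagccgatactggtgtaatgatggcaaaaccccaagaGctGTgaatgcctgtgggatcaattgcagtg
Lyz1, chr10:117291029-117291193, minus strand, GRCm38.p6: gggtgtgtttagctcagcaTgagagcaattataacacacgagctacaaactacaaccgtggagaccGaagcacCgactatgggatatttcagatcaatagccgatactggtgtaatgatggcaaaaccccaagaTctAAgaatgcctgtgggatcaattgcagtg
These 165 bases differ at 6 positions. Over the whole transcripts, 16.1% of the windows of 50 bases of Lyz1 also occur in Lyz2. The cKO to WT ratio of Lyz1 was higher than 1 in all 3 treatments, with log2 fold changes of 3.64 in NT, 3.18 after LPS and 5.56 after IL-4. Of the other 11 tested genes within 500000 bases of Lyz2, the largest difference was -0.50, in AC123720.1, and Cpsf6, the next gene beyond Lyz1, was at 0.38. Whether the Cre allele sets these values cannot be told apart here from the loss of Zmynd8, since every cKO library carries both.

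**Figure D4:**
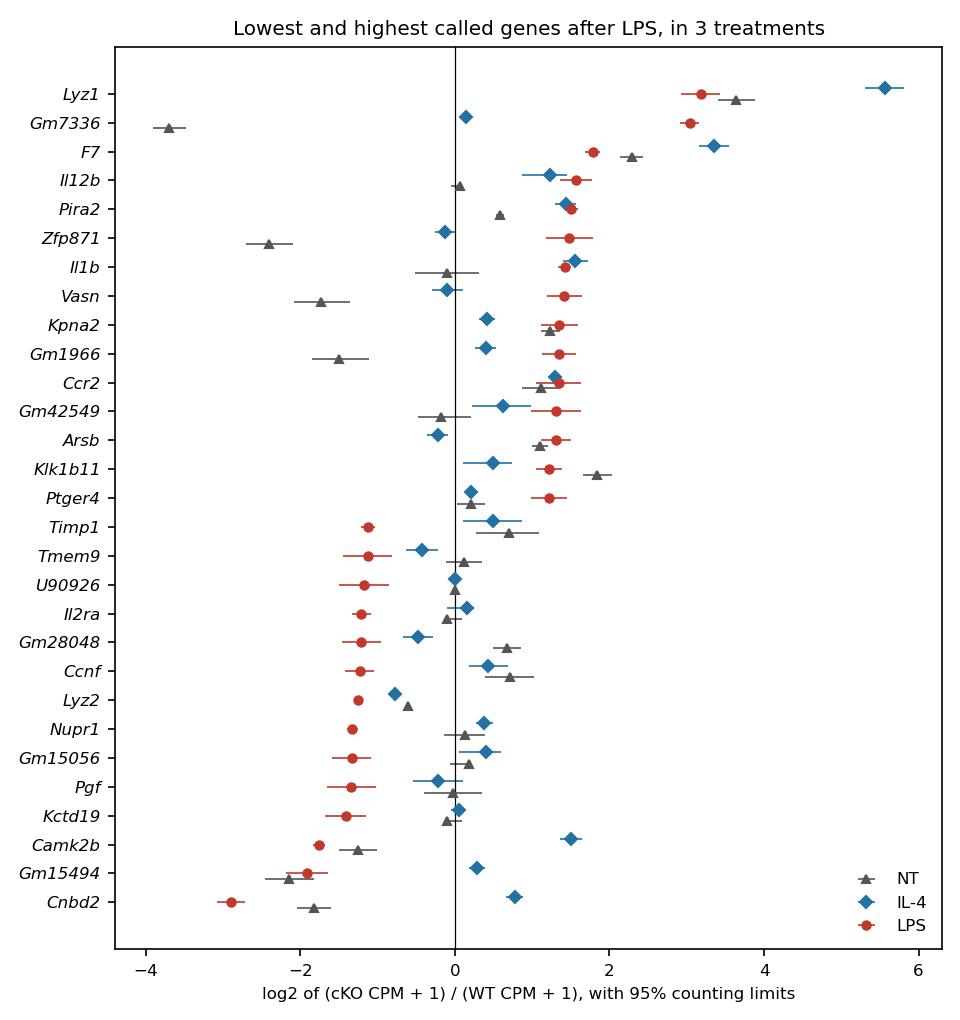
For 14 of the 15 lowest and all 15 highest called genes that averaged 100 or more counts after LPS, the log2 ratio of cKO to WT on CPM plus 1 is drawn with its 95% counting limits in NT (triangles), LPS (circles) and IL-4 (diamonds). Lyz1 and F7 lie above 1 in all 3 treatments, while Gm7336, Zfp871 and Vasn lie above 1 after LPS and below -1 in NT.

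The difference after LPS was then compared with that in the other treatments, which share no library with it. The cKO to WT ratio differed from that in NT at an adjusted p under 0.05 in 6702 of 11552 genes tested (58%), and from that after IL-4 in 4698 of 11754 (40%), by an exact conditional test on the reads of 4 libraries. A 2-fold difference in the ratio, on CPM plus 1, was also reached by 10.4% and 3.14% of the genes. Across the 11417 genes tested in all 3 treatments, Spearman's rho of the log2 fold changes was -0.34 between LPS and NT and 0.08 between LPS and IL-4, a description over genes, which are not independent and share the dependence on length.

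Il1b and Il12b were low without stimulation, and Tnf less so. In NT Il1b was at 1.6 CPM in WT and 1.42 CPM in cKO, against 65.3 and 177 CPM after LPS and 13.2 and 40.8 CPM after IL-4. Its cKO to WT ratio after LPS was above that in NT by 1.53 on the log2 scale, with an adjusted p of 7.93e-06 in the exact test, and did not pass the threshold against IL-4 (-0.14, adjusted p 0.099). For Ptgs2 the difference from NT was 1.47 and that from IL-4 was -0.17. Il12b had 0 counts in WT and 1 in cKO in NT and 5 and 46 counts after IL-4, so in counts its ratio was larger after IL-4 than after LPS (adjusted p 0.0305, exact test), while on CPM plus 1, where the pseudocount weighs on low counts, the log2 fold change was 1.23 after IL-4 and 1.56 after LPS. Tnf was at 33.1 CPM in WT and 45.3 CPM in cKO in NT and at 38.7 and 129 CPM after IL-4, and its ratio after IL-4 was the largest of the 3. For these 4 genes the cKO library was higher than WT after LPS and after IL-4.

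Pgf and Timp1 had another pattern. In NT Pgf had 10 counts in WT and 8 in cKO, and IL-4 gave 112 and 85 counts. Its ratio after LPS was below that after IL-4 (adjusted p 2.4e-05, exact test). Timp1 was at 135 CPM in WT and 61.5 CPM in cKO after LPS, against 0.954 and 2.17 CPM in NT and 1.2 and 2.1 CPM after IL-4. The cKO library was thus below WT after LPS and above it in the other treatments, where levels were low. Nupr1 was at 248 CPM in WT and 98.5 CPM in cKO after LPS, against 7.44 and 8.23 CPM in NT and 43.2 and 56.5 CPM after IL-4.

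**Figure D5:**
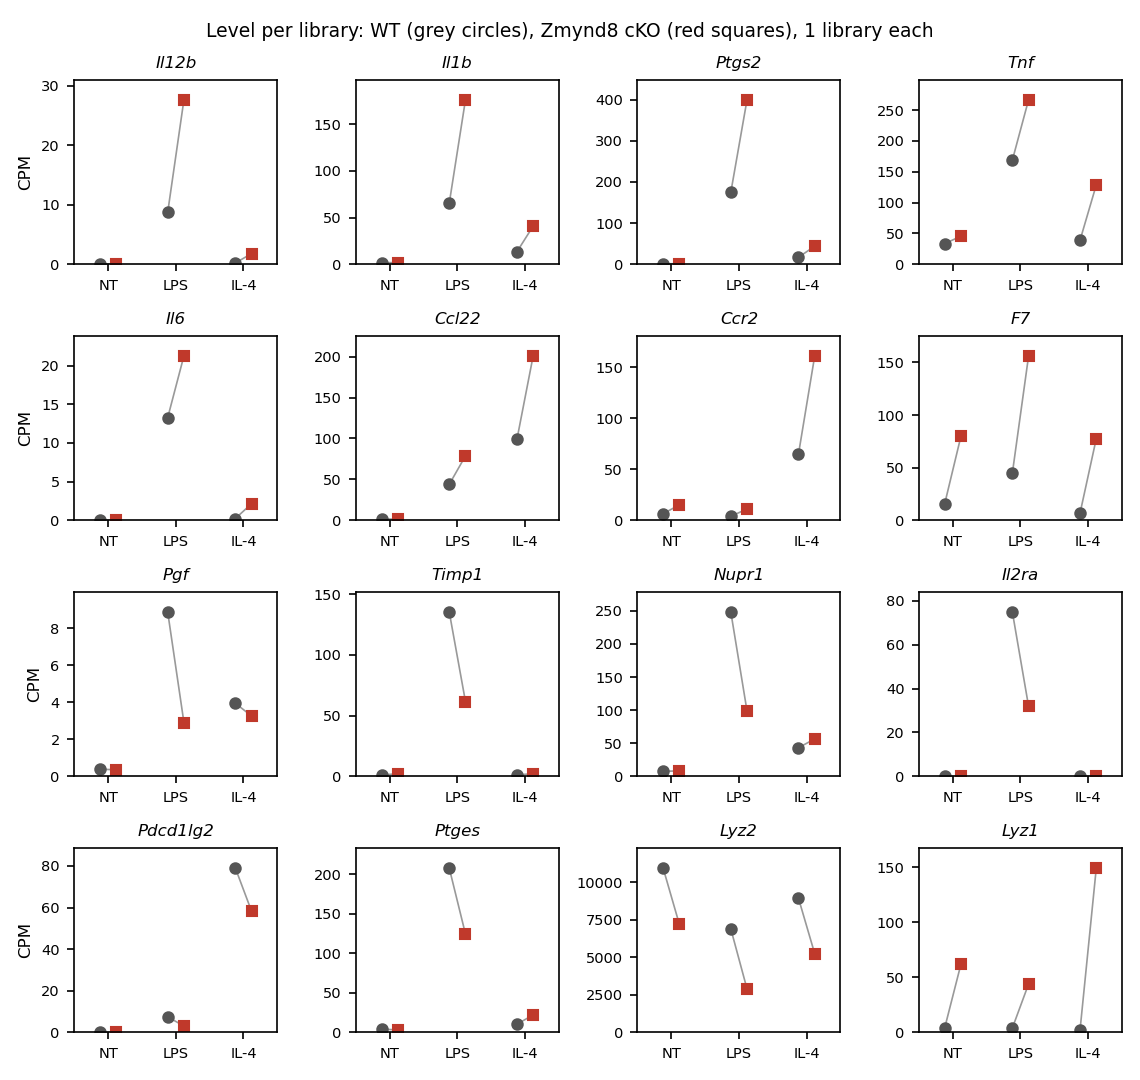
Levels (CPM, linear axes from 0, a scale of its own for each gene) of 16 genes in the WT (grey circles) and Zmynd8 cKO (red squares) libraries of NT, LPS and IL-4, 1 library each. Il12b, Il1b and Ptgs2 are highest in the cKO library after LPS, Pgf, Timp1, Nupr1 and Il2ra in the WT library after LPS, and Lyz2 is lower in cKO in each treatment.

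A smaller set of genes differed in the same direction in every treatment. Of the 11417 genes tested in all 3 treatments, 473 (4.14%) were called each time, and 126 (1.1%) with the same direction, 90 higher in cKO (0.788%) and 36 lower (0.315%). At 1.5-fold in each treatment and a mean of at least 50 counts after LPS, 25 genes were higher and 3 lower. The 3 lower genes were Lyz2, the complement gene C2, with log2 fold changes of -1.36 in NT, -0.87 after LPS and -0.60 after IL-4, and Ifi27l2a, with -1.03, -0.74 and -0.59. The higher genes included F7 (2.29, 1.78 and 3.35 in the same order), Ctsk (2.25, 1.03 and 2.67), Ccr2 (1.11, 1.34 and 1.3), Siglece, an inhibitory sialic acid receptor (0.74, 1.13 and 1.84), Tnfrsf8, which encodes CD30 (1.09, 0.78 and 1.44), C5ar2, a receptor for complement C5a (0.90, 1.09 and 1.41), Pf4 (1.3, 0.91 and 0.78) and Apoc2 (1.67, 0.65 and 2.26). Apoc2 shares 88.2% of its windows with Gm44805, and their sum gives 0.49 after LPS in place of 0.65, which is below 1.5-fold. F7 was at 44.7 CPM in WT and 156 CPM in cKO after LPS, against 15.5 and 79.8 CPM in NT and 6.69 and 77.6 CPM after IL-4, so the cKO library was above the highest WT library in each treatment.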

How the data were processed

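RNA-seq of BMDMs was used from 6 of the 47 samples, those of WT and Zmynd8 cKO in NT, LPS and IL-4, and the other 41 were not used. Each library held 3 mixed biological replicates. Per the labels and methods, polyA libraries were aligned with TopHat to the mm10 transcriptome. The processing notes also list Bowtie 0.12.2, CASAVA 1.4 and mm8. The authors deposited estimated counts per gene, not all whole (76.6% and 76.1% whole after LPS), and TPM values, which scale them by transcript length and library. The counter behind the estimated counts was not given in the sources used here. The authors' own fold change, p-value and call columns were not used. The table also held 431 rows without a gene identifier, which carried no counts.

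Estimated counts were rounded, divided by the library total (24902795 in WT and 23430578 in cKO after LPS) and scaled to CPM, and a pseudocount of 1 was added. The filter for tests was 10 counts on average. Tests used the two-sided exact binomial distribution with Benjamini-Hochberg adjustment (scipy 1.17.1), and 95% Clopper-Pearson limits were taken. Ratios of 2 treatments were compared with an exact conditional (Fisher) test, for genes tested in both. The binomial test was tried on simulated counts. The conditional test was only compared with Fisher's test in R on a made-up set of counts. edgeR 4.0.16 gave its exact test at assumed coefficients of variation, and scalings. Shared windows of 50 bases, lengths and coordinates came from the GENCODE vM21 transcripts and GRCm38.p6, and promoters from RefSeq. Length centring in 20 bins, the test of single named genes at assumed variation and the TATA box search were chosen after seeing the data.

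The members and the 31 hand-written lists were chosen with earlier results of these data known. Genes named by rule were Zmynd8, Lyz2, Il1b, Il12b, Pgf, the 15 highest and 15 lowest called genes that averaged 100 counts or more, per list up to 4 called members in each direction at 1.5-fold and that average, and its most abundant member, and the 10 largest differences in CPM. Other genes named beside list counts or in the comparison of treatments were chosen after their values were seen. A few genes that these rules would name are not reported here.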

Additional observations from a re-analysis of the deposited data

Results flagged for a closer look

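For 8 genes among the 15 highest and 15 lowest called genes that averaged 100 or more counts after LPS, the log2 ratio of cKO to WT after LPS differed by at least 1 from that in both other treatments, with an adjusted p under 0.05 by the exact conditional test on the reads of 4 libraries (Benjamini-Hochberg), which has no replicates. The 30 genes were chosen for extreme ratios after LPS, which favours such differences, and of all genes tested 10.4% differed by 2-fold from NT and 3.14% from IL-4. The ratio was lower after LPS for 4 of them. Ccnf, a cyclin, lay below NT with a difference of -1.944 and below IL-4 with -1.665. Cnbd2 had differences of -1.071 and -3.667 in the same order. The stress gene Nupr1 had -1.454 and -1.706, and the protease inhibitor gene Timp1 -1.824 and -1.625. The ratio was higher after LPS for the other 4. The prostaglandin receptor gene Ptger4 had differences of 1.01 from NT and 1.012 from IL-4. Vasn, whose product binds TGF-beta, had 3.152 and 1.515, and the zinc finger gene Zfp871 had 3.881 and 1.616. The Gapdh pseudogene Gm7336 had 6.731 and 2.888, and 95.6% of its windows of 50 bases also occur in Gapdh.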

How the results depend on the processing

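With 1 library per group, leaving out a replicate could not be run, and the limits cover counting error only. No paired analysis was possible because each group holds 1 library, so that the groups share fewer than 2 replicate numbers. Genes called fell from 3204 to 416 (290 higher and 126 lower) at an assumed variation of 0.1, to 37 (22 and 15) at 0.2, and to 826 (562 and 264) at 1.5-fold. Deposited TPM with the fold rule alone gave 3476 higher, and length centring, which kept 2119 of the 3204 calls in their direction, gave 1364 higher. Genes called at 2-fold went from 112 to 421 (247 and 174) at a pseudocount of 0.1, to 57 (37 and 20) when an average of 100 counts was required, and to 194 (132 and 62) on TPM. Length centring turned Zmynd8 to -0.0489, Ccl5 to 0.002 and Fgl2 to -0.0431, and Fgl2 was at -0.0451 with median-ratio scaling and -0.0286 with TMM. None of these was called before. The cause was not tested. The 31 lists, 18 of which had more members called higher than lower, had between 14 and 24 such lists in the other settings. Median-ratio scaling changed the log2 ratio of the libraries by 0.055, which lowers fold changes by up to that amount, and less at low counts. It took the genes called higher from 2119 to 1676 and those called lower from 1085 to 1495.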
